A study of Bos taurus with 24 samples.

Results

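Smooth muscle contractile genes and the microRNA locus that accompanies them were followed in subcutaneous fat of mature beef cows fed ad libitum after a period of feed restriction. The 10 genes listed were MIR145, MIR143, ACTA2, MYH11, TAGLN, CNN1, LMOD1, FHL1, MUSTN1 and SORBS2. Of these, 9 had a transcript cluster (the probe group that an array reads as 1 transcript) carrying that symbol alone, among 24997 clusters tested and 18444 distinct symbols. ACTA2 was not analysed, because its only cluster also carries the symbol ACTG2. MIR145, FHL1, MUSTN1 and SORBS2 were chosen by their responses in these data, so their values are a description without a test. The other 5 genes, MIR143, MYH11, TAGLN, CNN1 and LMOD1, were listed for their place in the contractile programme and were tested. They too were listed with earlier results of these data known.

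The study took 12 non-pregnant crossbred cows with the most and the least weight gain during ad libitum feeding, and biopsied the fat pad above the rump of each cow in both feeding periods. The 4 groups of 6 arrays were high gain cows at ad libitum feeding (day 49 of that period), the same high gain cows at restriction (day 105), low gain cows at ad libitum feeding (day 49) and the same low gain cows at restriction (day 105). All cows received the same ration, in a fixed amount during restriction and freely afterwards, with no other treatment. High gain cows are called H1 to H6 here and low gain cows L1 to L6, and a number only identifies the cow. Restriction always came first and was sampled on the left side of the animal, so diet, sequence, day and side cannot be told apart. The paper also reports a lower average RNA integrity score at restriction than at ad libitum feeding. RNA quality therefore cannot be told apart from diet either. High and low gain were defined from the ad libitum period itself. The paper reports that high gain cows also ate more in that period, so gain and feed intake cannot be told apart.

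Smooth muscle cells of vessel walls contract through a dedicated myosin and actin apparatus. Its genes are switched on by serum response factor (SRF) with the coactivator myocardin and its relatives. In mouse, miR-143 and miR-145 are made from 1 shared primary transcript that SRF and myocardin also switch on, and both microRNAs favour the contractile state of these cells. In the bovine reference annotation (RefSeq, ARS-UCD2.0) MIR143 and MIR145 lie on the same chromosome with 0 genes between them, and 1 long non-coding gene, LOC132345768, spans both. Total RNA was turned into cDNA, and the labelled cDNA was hybridised to the array. Whether the signal at either cluster comes from the primary transcript, the hairpin precursor or the mature microRNA is not known. The values are therefore not read as levels of the mature microRNAs. The stretch that the probes cover is not given in the sources used here.

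Values are log2 signals minus the median of their own array, so 0 marks the middle cluster of an array and 1 unit is a doubling. This centring matters for diet: deposited array medians were 7.83 to 7.94 at ad libitum feeding and 8.26 to 8.34 at restriction. Without centring the median cluster was 0.42 lower at ad libitum feeding in high gain cows and 0.43 lower in low gain cows. Arrays within a group correlated at 0.961 to 0.986, and 0 member values lay at the upper end of the scale. Adipocyte markers averaged 9.05 to 9.71, 8.46 to 9.08, 9.47 to 9.89 and 8.59 to 9.30 in the 4 groups in the order above, with 0 of 13 below the array median. Of 9 keratinocyte markers, 8 were below the array median in each group. In bulk tissue, fewer cells of a type and less RNA per cell cannot be told apart.

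MIR145 took opposite positions in the 2 kinds of cow. Its level ran from 1.48 to 2.62 in high gain cows at ad libitum feeding (median 2.12), against 2.82 to 4.48 in the same cows at restriction (median 3.40). In low gain cows it ran from 2.97 to 4.05 at ad libitum feeding (median 3.43), against 1.20 to 3.63 at restriction (median 2.09). The high gain diets did not overlap, while the low gain diets overlapped through the restriction sample of cow L1 at 3.63. The next highest low gain restriction value was 2.32 in cow L2, below all 6 low gain ad libitum values.

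The group means of MIR145 were 2.08 ± 0.48, 3.52 ± 0.60, 3.49 ± 0.48 and 2.18 ± 0.81 (SD, n = 6 each) in high gain cows at ad libitum feeding, high gain cows at restriction, low gain cows at ad libitum feeding and low gain cows at restriction. From the highest mean to the lowest, the order was high gain at restriction, low gain at ad libitum feeding, low gain at restriction and high gain at ad libitum feeding. The upper pair of means differed by less than 1 SD, and so did the lower pair. MIR145 was, in high gain cows, 1.44 log2 units lower at ad libitum feeding than at restriction (SE 0.28, 2.72-fold). Low gain cows had it 1.31 higher (SE 0.34, 2.49-fold).

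**Figure D1:**
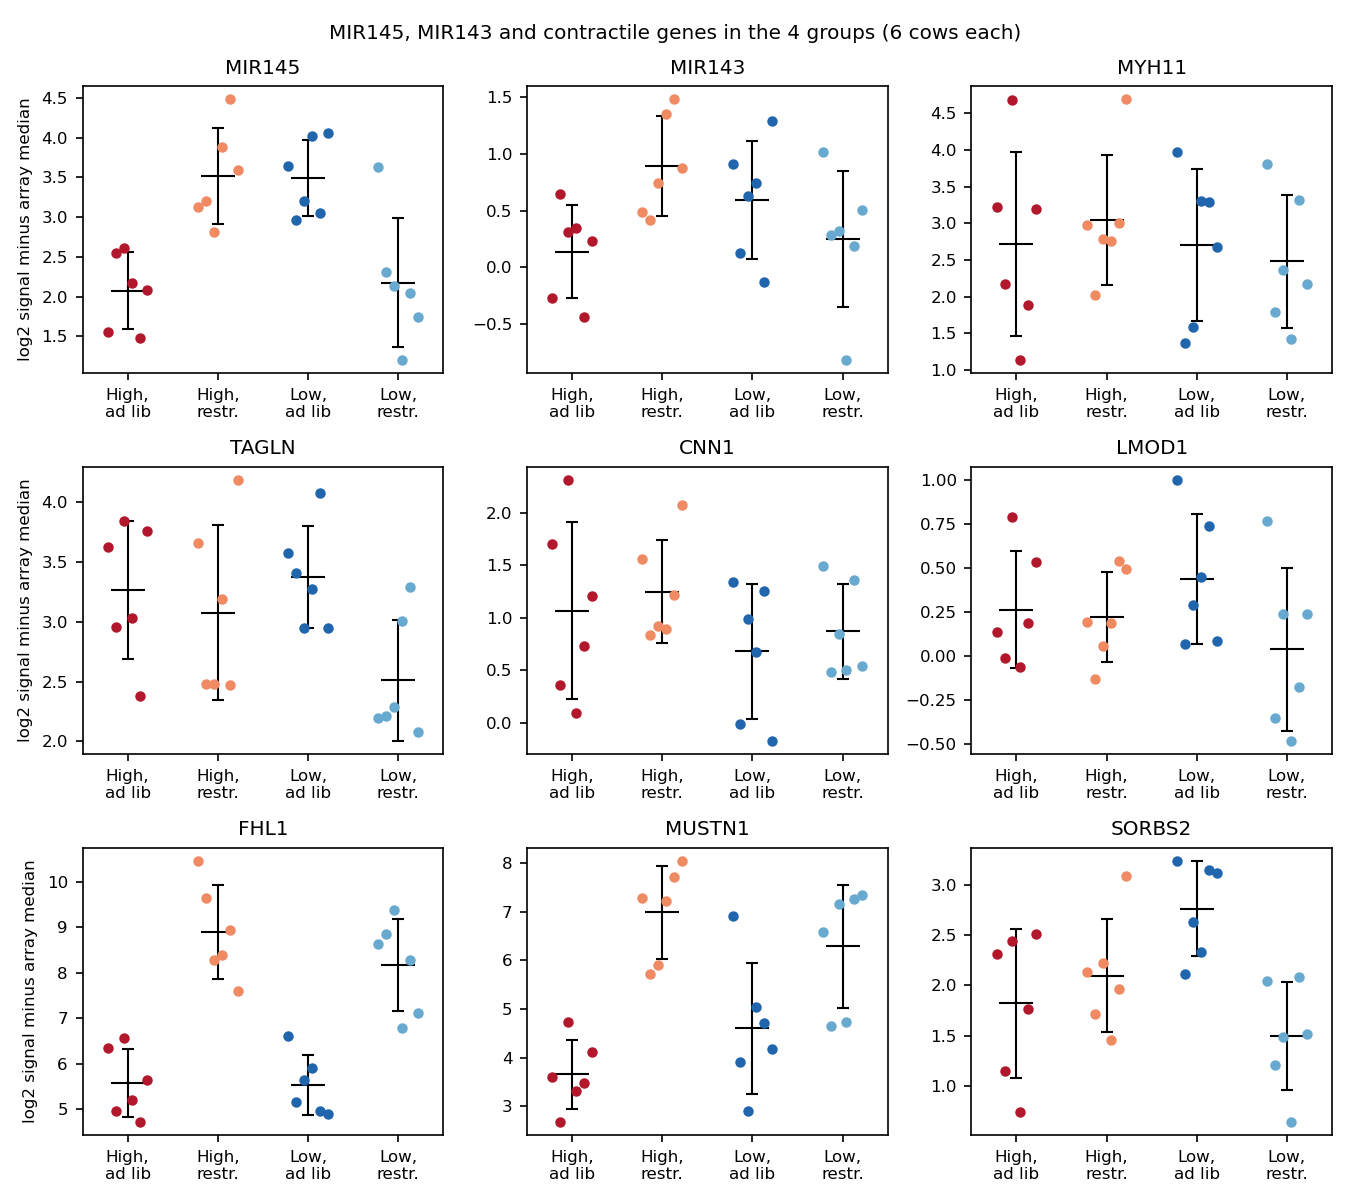
Each panel plots 1 gene as log2 signal minus array median (vertical axis, a separate scale per panel) in the 4 groups, with 1 point per cow, a bar at the mean and error bars of 1 SD (n = 6). MIR145 lies between 1.48 and 2.62 in high gain cows at ad libitum feeding and between 2.82 and 4.48 at restriction, while FHL1 and MUSTN1 are lower at ad libitum feeding by mean in both kinds of cow.

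Within individual cows, the change of MIR145 from restriction to ad libitum feeding had the same sign in all 6 high gain cows. It was -1.57 in H1, -0.65 in H2, -0.20 in H3, -1.71 in H4, -3.01 in H5 and -1.52 in H6. The low gain cows gave 0.02 in L1, 0.65 in L2, 1.08 in L3, 2.82 in L4, 1.01 in L5 and 2.31 in L6. Thus 6 of 6 high gain cows were lower and 6 of 6 low gain cows higher, a pattern that 8 clusters showed (0.032% of all tested). Cow L1 had practically no change, and its sign turned with the scaling. It was -0.43 with the values as deposited, -0.21 after quantile normalization and -0.15 after centring by brightness, so that 5 of 6 low gain cows were higher under each of these. The high gain cows stayed lower in 6 of 6 under all 3.

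The difference of the MIR145 diet change, high minus low gain, was -2.76 (SE 0.50, 6.77-fold), and the per-cow changes of the 2 kinds of cow did not overlap. This contrast served to choose MIR145, so nothing is read from it. Between gain groups, MIR145 was 1.42 lower in high than in low gain cows at ad libitum feeding (SE 0.25, 2.67-fold), with no overlap (59 clusters, 0.236% of all, had all high gain cows lower there). At restriction it was 1.34 higher in high than in low gain cows (SE 0.36, 2.54-fold), and the groups overlapped through L1.

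**Figure D2:**
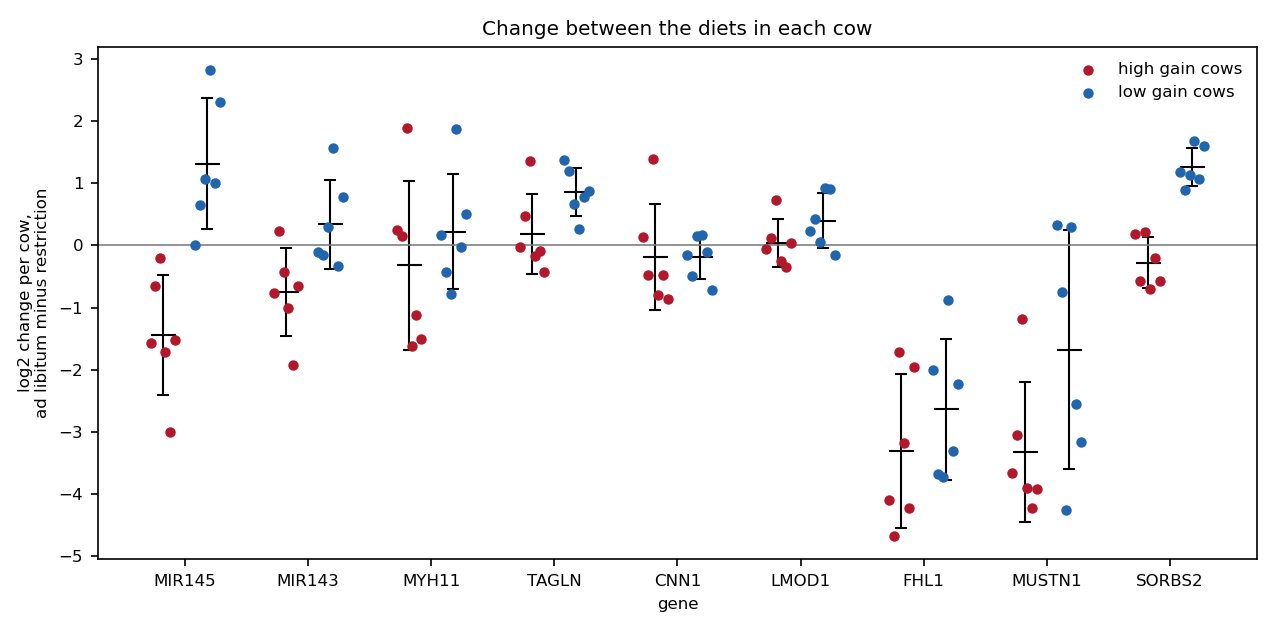
The plot gives the log2 change per cow, ad libitum feeding minus restriction (vertical axis), for each of the 9 genes, with high gain cows in red left of low gain cows in blue and the mean with 1 SD (n = 6 per colour). MIR145 is the gene whose red points all lie below 0 and whose blue points all lie at or above 0, with L1 at 0.02.

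MIR143, the neighbouring microRNA gene, was tested. Its level in high gain cows was -0.44 to 0.65 at ad libitum feeding (median 0.27), against 0.41 to 1.48 at restriction (median 0.81). Low gain cows had -0.13 to 1.29 at ad libitum feeding (median 0.69), against -0.82 to 1.02 at restriction (median 0.30). Both pairs overlapped, and 5 of 6 high gain cows were lower at ad libitum feeding, against 3 of 6 low gain cows. The fall in high gain cows was 0.75 log2 units (change -0.75, SE 0.23, 95% interval -1.24 to -0.27, limma adjusted p = 0.0198). The low gain change was 0.34 (SE 0.29, adjusted p = 0.382).

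The call for MIR143 did not hold without H4, H5 or H6. Without H4 the limma adjusted p was 0.0555, without H5 it was 0.0776 and without H6 it was 0.0507. The change was -0.71 without H4 (SE 0.25), -0.52 without H5 (SE 0.21) and -0.78 without H6 (SE 0.27). With each cow left out in turn, the change stayed between -0.95 and -0.52. The difference of the diet change between high and low gain cows, tested directly, was -1.10 (95% interval -1.88 to -0.32, unadjusted p = 0.00899) and did not pass adjustment over all clusters (limma adjusted p = 0.389). MIR143 was 0.46 lower in high than in low gain cows at ad libitum feeding (SE 0.24, adjusted p = 0.748) and 0.64 higher at restriction (SE 0.27, adjusted p = 0.507), neither past the threshold. MIR143 and MIR145 covaried on these arrays at r = 0.85, so MIR143 adds no evidence that is independent of the choice of MIR145.

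MYH11, the smooth muscle myosin heavy chain and the most specific gene of the contractile set, did not pass the test in any comparison. It ran from 1.14 to 4.69 in high gain cows at ad libitum feeding (median 2.69), against 2.02 to 4.70 at restriction (median 2.88). Low gain cows ran from 1.37 to 3.98 at ad libitum feeding (median 2.98), against 1.43 to 3.80 at restriction (median 2.27). The spread between cows was wide and the groups overlapped almost fully. The high gain change was -0.32 (SE 0.55, adjusted p = 0.683), with 3 of 6 cows lower. The low gain change was 0.22 (SE 0.48, adjusted p = 0.761), with 3 of 6 cows higher. Its difference of the diet change was -0.54 (95% interval -1.77 to 0.69, limma adjusted p = 0.811), so a difference between the gain groups of a size near that of MIR143 lies inside the interval.

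TAGLN encodes transgelin, an actin-binding protein of smooth muscle. Its level in low gain cows was 2.95 to 4.08 at ad libitum feeding (median 3.34), against 2.07 to 3.29 at restriction (median 2.25). All 6 low gain cows were higher at ad libitum feeding, by 0.27 to 1.38, although the groups overlapped. The sign of L4 turned with the scaling, so that 5 of 6 were higher under each other scaling. L4 was at -0.22 as deposited, -0.067 after quantile normalization and -0.065 after centring by brightness. TAGLN rose by 0.86 in these cows (SE 0.24, 95% interval 0.34 to 1.38, 1.82-fold, limma adjusted p = 0.0149). High gain cows ran from 2.38 to 3.84 at ad libitum feeding (median 3.33), against 2.47 to 4.18 at restriction (median 2.84), a change of 0.19 (SE 0.34, adjusted p = 0.698). The difference between the gain groups was -0.67 (SE 0.28, adjusted p = 0.497).

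The rise of TAGLN in low gain cows depended on the scaling. It was 0.41 (limma adjusted p = 0.159) with the values as deposited, 0.68 (adjusted p = 0.0552) after quantile normalization and 0.68 (adjusted p = 0.0502) after centring by brightness, none past the threshold. With the cow as a block, centring by brightness gave 0.68 with an adjusted p of 0.0156, past it. Leaving out L1 gave 0.76 (adjusted p = 0.0617) and leaving out L2 gave 0.79 (adjusted p = 0.0581). High minus low gain, TAGLN differed by -0.11 at ad libitum feeding (SE 0.26, adjusted p = 0.963) and by 0.57 at restriction (SE 0.32, adjusted p = 0.617), neither past the threshold.

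CNN1, calponin, which binds actin in smooth muscle, passed no test. Its level was 0.09 to 2.31 in high gain cows at ad libitum feeding (median 0.97), against 0.83 to 2.08 at restriction (median 1.07), and -0.17 to 1.34 in low gain cows at ad libitum feeding (median 0.84), against 0.49 to 1.5 at restriction (median 0.69). The diet changes were -0.18 in high gain cows (SE 0.35, adjusted p = 0.723) and -0.19 in low gain cows (SE 0.28, adjusted p = 0.640). Their difference was 0.01 (SE 0.33, limma adjusted p = 0.995), the only one of the 9 genes not below 0. CNN1 was 0.39 higher in high than in low gain cows at ad libitum feeding (SE 0.38) and 0.38 higher at restriction (SE 0.25), with adjusted p of 0.879 and 0.668.

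LMOD1, leiomodin, which nucleates actin filaments in smooth muscle, also passed no test. It ran from -0.07 to 0.79 in high gain cows at ad libitum feeding (median 0.16), against -0.13 to 0.54 at restriction (median 0.19). In low gain cows it ran from 0.07 to 1.00 at ad libitum feeding (median 0.37), against -0.49 to 0.76 at restriction (median 0.03). The changes were 0.04 (SE 0.17, adjusted p = 0.876) in high gain cows and 0.40 (SE 0.22, adjusted p = 0.179) in low gain cows, where 5 of 6 were higher. With the values as deposited, 2 of 6 low gain cows were higher. The difference of the 2 changes was -0.36 (SE 0.23, limma adjusted p = 0.667). LMOD1 was -0.18 apart at ad libitum feeding, high minus low (SE 0.19, adjusted p = 0.898), and 0.19 apart at restriction (SE 0.20, adjusted p = 0.814).

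FHL1, MUSTN1 and SORBS2, chosen for their responses, encode an LIM-domain protein of muscle, a small nuclear protein of the musculoskeletal system and a scaffold that links actin to adhesion sites. FHL1 ran from 4.72 to 6.56 in high gain cows at ad libitum feeding (median 5.42), against 7.6 to 10.45 at restriction (median 8.66). Low gain cows ran from 4.90 to 6.62 at ad libitum feeding (median 5.41), against 6.79 to 9.38 at restriction (median 8.45). It was the gene with the same direction and no overlap in both kinds of cow, 3.31 lower in high gain cows (SE 0.45, 9.91-fold) and 2.64 lower in low gain cows (SE 0.43, 6.23-fold). These changes differed by -0.67 (SE 0.59), about 1 SE from 0. Clusters of like brightness were 0.47 higher at ad libitum feeding in high gain cows and 0.57 higher in low gain cows, so FHL1 ran against its neighbours on the scale.

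MUSTN1 ran from 2.68 to 4.74 in high gain cows at ad libitum feeding (median 3.55), against 5.73 to 8.04 at restriction (median 7.26), with no overlap. Low gain cows ran from 2.90 to 6.91 at ad libitum feeding (median 4.45), against 4.66 to 7.34 at restriction (median 6.87), with overlap. It was 3.33 lower in high gain cows (SE 0.42, about 10-fold), in 6 of 6 of them. Low gain cows had it 1.68 lower (SE 0.64, 3.21-fold), in 4 of 6, and the 2 others were higher by at most 0.33. With the values as deposited, quantile normalized or centred by brightness, all 6 low gain cows were lower. Between gain groups its diet change differed by -1.65 (SE 0.77).

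In low gain cows SORBS2 ran from 2.11 to 3.23 at ad libitum feeding (median 2.87), against 0.65 to 2.08 at restriction (median 1.5), with no overlap and all 6 cows higher by 0.90 to 1.69. High gain cows ran from 0.75 to 2.51 at ad libitum feeding (median 2.04), against 1.45 to 3.08 at restriction (median 2.05). The change was -0.27 (SE 0.33) in high gain cows and 1.26 (SE 0.26, 2.40-fold) in low gain cows, a difference of -1.54 (SE 0.21, 2.90-fold). As deposited, the changes were -0.69 in high gain cows, with 6 of 6 lower, and 0.81 in low gain cows, with 6 of 6 higher. Centred, 4 of 6 high gain cows were lower. The per-cow changes of the 2 kinds of cow did not overlap.

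Counts of the 5 tested genes and of all 9 are given beside the shares over all clusters. In high gain cows 0 of the 5 tested genes rose (background 17.9% of clusters) and 1 fell, MIR143 (background 16.1%). Of the same 5 genes, 1 rose in low gain cows, TAGLN (background 18.6%), and 0 fell (background 14%). The groups did not overlap for 3 of 9 genes in the high gain diet comparison, MIR145, FHL1 and MUSTN1, all lower at ad libitum feeding (7% of all clusters). In the low gain comparison FHL1 was the 1 gene with no overlap in the lower direction (6.05% of clusters) and SORBS2 the 1 in the higher direction (8.99%). These 4 genes were chosen on such values, so nothing is read from their counts.

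Between gain groups at ad libitum feeding, limma called 0 clusters higher (0%) and 0 lower (0%), and 0 of the 5 tested genes. There 1812 clusters had an unadjusted p under 0.05 and the smallest adjusted p was 0.17. At restriction 0 (0%) and 0 (0%) clusters were called, 2307 had an unadjusted p under 0.05 and the smallest adjusted p was 0.0651. For the difference of the diet change, 0 clusters were called higher (0%) and 5 lower (0.02%), with 0 of the 5 tested genes among them. The count of 5 was 0 without any 1 of H1, H6, L1, L2, L4 or L6, 1 without H2 or L3, and 3 without H5. The unmoderated test called 0 clusters in all 3 of these comparisons. MIR145 and SORBS2 were the 2 of 9 genes whose per-cow changes did not overlap between gain groups, both lower in high gain cows (0.384% of clusters). Both were chosen by their responses in these data, so nothing is read from this count.

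The median over the 9 genes of the difference of the diet change was -0.67, with 8 of 9 below 0. Over all clusters that median was -0.01, 51.6% were below 0 and the 5th and 95th percentiles were -0.57 and 0.47. For the diet change itself the median over the 9 genes was -0.32 in high gain cows (all clusters -0.01) and 0.34 in low gain cows (all clusters 0.02). As 4 of the 9 were picked for their response, these medians describe the set and test nothing.

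The genes fell into different patterns of covariation within groups. Deviations of each array from its group mean were correlated over the 24 arrays, which come in pairs from 12 cows, so the values are a description. MYH11 varied with CNN1 (r = 0.84), SORBS2 (r = 0.83), LMOD1 (r = 0.77), MUSTN1 (r = 0.72) and TAGLN (r = 0.55). MIR145 varied with MIR143 (r = 0.85) and less with LMOD1 (r = 0.50) and MYH11 (r = 0.44), while with TAGLN r was -0.13. FHL1 stood at r = 0.04 to 0.40 with the other genes.

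**Figure D3:**
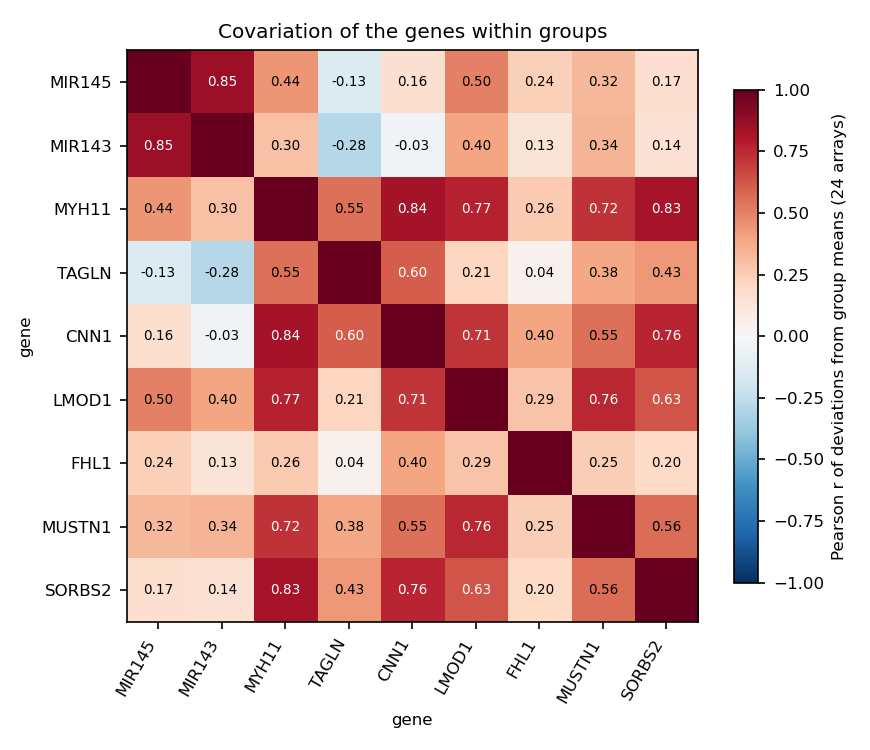
The heat map shows Pearson r between each pair of the 9 genes, computed on deviations from group means over 24 arrays, with red for positive and blue for negative r. MYH11, CNN1, LMOD1, SORBS2 and MUSTN1 form a block of r = 0.55 to 0.84, while MIR145 and MIR143 pair with each other at 0.85.

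Beyond the set, the single-symbol clusters most like MYH11 in this measure, among 9802 compared, were DES (desmin, the muscle intermediate filament; r = 0.91), ZNF705A (0.80), FXR1 (0.79), PLN (phospholamban, a regulator of the calcium pump; 0.75), USP47 (0.74) and CCPG1 (0.74). For MYH11, 95% of all compared clusters had an r under 0.48. Those most like MIR145 were CWC15 (0.78), CCDC91 (0.75), SIK1 (0.73), POLR2K (0.73), CHAMP1 (0.70) and LOC788363 (0.70), where 95% of clusters had an r under 0.42. The 2 lists share no gene, and all values come from the same arrays.

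The wider contractile apparatus was read from 34 measured genes of a list of 37 that holds none of the 9. In high gain cows 3 rose and 4 fell (median change -0.16), and in low gain cows 9 rose and 0 fell (median 0.18). Over all clusters 17.9% rose and 16.1% fell in high gain cows, and 18.6% rose and 14% fell in low gain cows, and these shares are the background for each list below. SVIL, supervillin, which ties myosin to the membrane, fell by 1.23 in high gain cows (change -1.23, SE 0.27, limma adjusted p = 0.00394) and had a change of -0.24 in low gain cows (adjusted p = 0.407). PPP1R12A, the targeting subunit of myosin phosphatase, fell by 0.92 in high gain cows (SE 0.21, adjusted p = 0.00412), and ITGA7, a laminin receptor, fell by 0.83 (SE 0.20, adjusted p = 0.00658). Their low gain changes were -0.37 (adjusted p = 0.295) and -0.21 (adjusted p = 0.374). The differences of their diet changes passed no test (limma adjusted p = 0.597 and 0.389). MYL6, a myosin light chain found in many cells, rose in both kinds of cow, by 0.74 in high gain (SE 0.21, adjusted p = 0.017) and by 0.92 in low gain cows (SE 0.17, adjusted p = 0.00123). ACTN1, alpha-actinin, rose by 1.15 in low gain cows (SE 0.15, adjusted p = 0.000146) and had a change of 0.37 in high gain cows (SE 0.21, adjusted p = 0.201).

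These counts moved with the scaling, as did those over all clusters, of which 6.71% were higher and 51.8% lower in high gain cows as deposited, and 5.97% higher and 54.4% lower in low gain cows. After quantile normalization the shares were 16.5% and 17.2% in high gain, and 15.1% and 15.9% in low gain cows. By brightness they were 17.2% and 16.3% in high gain, and 15.9% and 15.2% in low gain cows. In low gain cows the contractile list had 3 genes higher and 10 lower with the values as deposited (median -0.27), 4 and 2 after quantile normalization (median 0.00) and 5 and 1 after centring by brightness (median 0.04). In high gain cows it had 0 higher and 18 lower as deposited (median -0.58), 1 and 8 after quantile normalization (median -0.23) and 1 and 8 by brightness (median -0.19). The difference of the diet change kept its sign. It was below 0 for 29 of 34 genes (median -0.34), for 28 as deposited, for 26 after quantile normalization and for 27 by brightness. The shares of all clusters below 0 were 51.6% centred, 45.6% as deposited, 49.9% after quantile normalization and 49.6% by brightness. Of the 34 genes 0 passed the test of that difference, and ACTN1, with the smallest p of those named, had -0.78 (SE 0.17, limma adjusted p = 0.222).

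Of 24 listed regulators of smooth muscle genes, 22 were measured. Of these, 3 rose and 5 fell in high gain cows and 5 rose and 1 fell in low gain cows, against 17.9%, 16.1%, 18.6% and 14% of all clusters in the same order. The low gain median change was 0.28, but -0.18 as deposited. As deposited, 1 regulator was higher and 8 lower in low gain cows, against 5.97% and 54.4% of all clusters. SRF, the factor that binds contractile gene promoters, fell by 0.63 in high gain cows (SE 0.16, limma adjusted p = 0.00786) and had a change of -0.03 in low gain cows (adjusted p = 0.900). MRTFB, a myocardin-related coactivator of SRF, fell by 1.19 in high gain cows (SE 0.23, adjusted p = 0.0018) and had a change of -0.10 in low gain cows (adjusted p = 0.766). JAG1, a Notch ligand of vessel walls, fell by 0.90 in high gain cows (SE 0.18, adjusted p = 0.0022). Its low gain change was -0.43 (adjusted p = 0.230), and the difference of its diet change passed no test (limma adjusted p = 0.552). TEAD1, a factor of the Hippo pathway, fell in both, by 1.26 in high gain (SE 0.19, adjusted p = 0.000317) and by 1.03 in low gain cows (SE 0.23, adjusted p = 0.0046), and FOXF1, a factor of mesenchyme around vessels and gut, rose in both, by 1.39 (SE 0.29, adjusted p = 0.00265) and by 1.63 (SE 0.23, adjusted p = 0.000194). At restriction FOXF1 was below the array median, at a mean of -1.18 in high gain and -1.12 in low gain cows.

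Tested directly, the difference of the diet change was -0.61 for SRF (SE 0.20, limma adjusted p = 0.396), -1.09 for MRTFB (SE 0.23, adjusted p = 0.209) and -1.02 for MEF2C, a muscle transcription factor (SE 0.29, adjusted p = 0.319). None passed, so the fall of SRF and MRTFB in high gain cows is not shown to be absent in low gain cows. The median difference over the regulators was -0.37.

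Mouse or human work names 22 listed genes as targets of miR-143 or miR-145, of which 21 were measured. Of these, 3 rose and 6 fell in high gain cows and 3 rose and 0 fell in low gain cows, against the same 17.9%, 16.1%, 18.6% and 14% of all clusters. As deposited, 2 were higher and 10 lower in low gain cows, against 5.97% and 54.4% of all clusters. After quantile normalization 3 were higher and 2 lower in low gain cows, against 15.1% and 15.9% of all clusters. HK2, hexokinase, rose by 2.06 in high gain cows (SE 0.31, limma adjusted p = 0.000298) and by 1.96 in low gain cows (SE 0.25, adjusted p = 0.000104). FSCN1, fascin, an actin-bundling protein, rose by 1.43 in high gain (SE 0.26, adjusted p = 0.00126) and by 1.47 in low gain cows (SE 0.29, adjusted p = 0.00178). MRTFB, described above, stands in this list too, and SMAD3 is also among the regulators, so both count in the 2 lists. SMAD3, a signal carrier of TGF-beta, fell by 0.80 in high gain cows (SE 0.17, adjusted p = 0.00335). Its low gain change was -0.23 (adjusted p = 0.299), and the difference of its diet change passed no test (limma adjusted p = 0.331). The median difference of the diet change over these genes was -0.20, with 0 called.

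Paralogs of the 10 listed genes, among them 4 actins related to ACTA2, were read in the same way. Of 17 measured paralogs (18 listed), 7 rose and 3 fell in high gain cows and 9 rose and 2 fell in low gain cows. As deposited the counts were 3 and 6 in high gain and 5 and 4 in low gain cows, and the high gain median turned (0.36 centred, -0.06 as deposited). Of all clusters as deposited, 6.71% were higher and 51.8% lower in high gain cows, and 5.97% and 54.4% in low gain cows. ACTB reached the upper end of the scale on 19 of 24 arrays, where only the array median moved its centred value. ACTG1 came within 0.05 of that end on 2 arrays. Of the 15 other paralogs, 5 rose and 3 fell in high gain and 7 rose and 2 fell in low gain cows. CNN2, the calponin of non-muscle cells, rose by 1.38 in high gain (SE 0.18, limma adjusted p = 0.000117) and by 1.13 in low gain cows (SE 0.19, adjusted p = 0.000756), where CNN1 passed no test. FHL2 rose by 1.02 in high gain (SE 0.15, adjusted p = 0.000296) and by 1.47 in low gain cows (SE 0.16, adjusted p = 4.4e-05), the opposite sign to FHL1. Among paralogs not picked by p, FHL5 had the sign of FHL1 by group mean. It stood at 1.50 at ad libitum feeding against 2.06 at restriction in high gain, and 1.68 against 1.92 in low gain cows. FHL3 had the sign of FHL2, at 0.49 against 0.003 in high gain and 0.35 against -0.21 in low gain cows. MYH14, a non-muscle myosin, rose by 1.52 (SE 0.24, adjusted p = 0.000401) and by 1.91 (SE 0.16, adjusted p = 1.03e-05), and LMOD2, a leiomodin of striated muscle, fell by 0.78 (SE 0.11, adjusted p = 0.000266) and by 0.69 (SE 0.10, adjusted p = 0.00023), in high and low gain cows in that order. LMOD2 was dim, below the array median by group mean in all 4 groups (-1.74 to -0.89).

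Markers of other cells that a fat biopsy holds moved with some of these results, and their part in them was not tested. The 12 endothelial markers, none below the array median, had a mean level per array of 3.16 to 3.55 in high gain cows at ad libitum feeding, against 3.49 to 4.05 at restriction. Low gain cows had 3.53 to 4.08 at ad libitum feeding, against 3.09 to 3.79 at restriction. Centred, the group means had the same order as those of MIR145, but the low gain rise depended on the scaling. The low gain median change over the 12 was 0.47 centred and 0.02 as deposited. It was 0.01 both after quantile normalization and by brightness, and 6 of 12 were below 0 under each scaling but the centred one. Of these markers, 0 rose and 4 fell in high gain cows, and in low gain cows 3 rose and 1 fell. As deposited, 2 were higher and 4 lower in low gain cows, against 5.97% and 54.4% of all clusters. VWF, the von Willebrand factor of endothelium, fell by 1.75 in high gain cows (SE 0.23, limma adjusted p = 0.000133), with a change of -0.33 in low gain cows (adjusted p = 0.430). The median difference of the diet change over the 12 was -0.91, with 11 below 0 and 0 called, and it was -0.87, -0.84 and -0.84 as deposited, quantile normalized and by brightness.

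Pericyte markers, from the contractile cells of capillaries, stood near the background, with a median difference of -0.05 over 14 genes (0.00 by brightness). There 1 rose and 1 fell in high gain cows, and in low gain cows 2 rose and 1 fell. Of 20 measured skeletal muscle markers, 16, 18, 16 and 19 were below the array median in the 4 groups, and CKM, the muscle creatine kinase, stood between -1.95 and -1.73 by group mean. The highest skeletal muscle mean in any array was 0.81, in a high gain cow at ad libitum feeding. Of the 20, 2 rose and 0 fell in high gain and 0 rose and 1 fell in low gain cows. The skeletal muscle mean per array ran from -1.05 to 0.81 in high gain cows at ad libitum feeding, against -0.997 to -0.52 at restriction, and from -1.04 to 0.11 in low gain cows at ad libitum feeding, against -0.92 to -0.76 at restriction. FHL1 and MUSTN1 are known from skeletal muscle too, and the part of that tissue in their values was not tested. Fibroblast markers rose in both kinds of cow, 11 of 13 in high gain and 9 of 13 in low gain (10 and 8 of 12 without DCN, which reached the scale end), among them COL1A2 by 3.67 (SE 0.60, limma adjusted p = 0.000564) and by 2.78 (SE 0.59, adjusted p = 0.00303). Of 13 adipocyte markers, 9 rose and 1 fell in high gain and 10 rose and 1 fell in low gain cows, but 3 and 3, and 2 and 2, after quantile normalization. Of all clusters after quantile normalization, 16.5% were higher and 17.2% lower in high gain cows, and 15.1% and 15.9% in low gain cows. CIDEC, FABP4, CD36 and ADIPOQ reached the upper end of the scale on 1 to 11 of 24 arrays, where a higher signal could not show and only the array median moved the centred value. Of the 9 others, 6 rose and 1 fell in each kind of cow. Of 11 macrophage markers, 1 rose and 0 fell in high gain and 4 rose and 0 fell in low gain cows, and of the 9 keratinocyte markers 0 rose and 1 fell, and 1 rose and 0 fell.

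**Figure D4:**
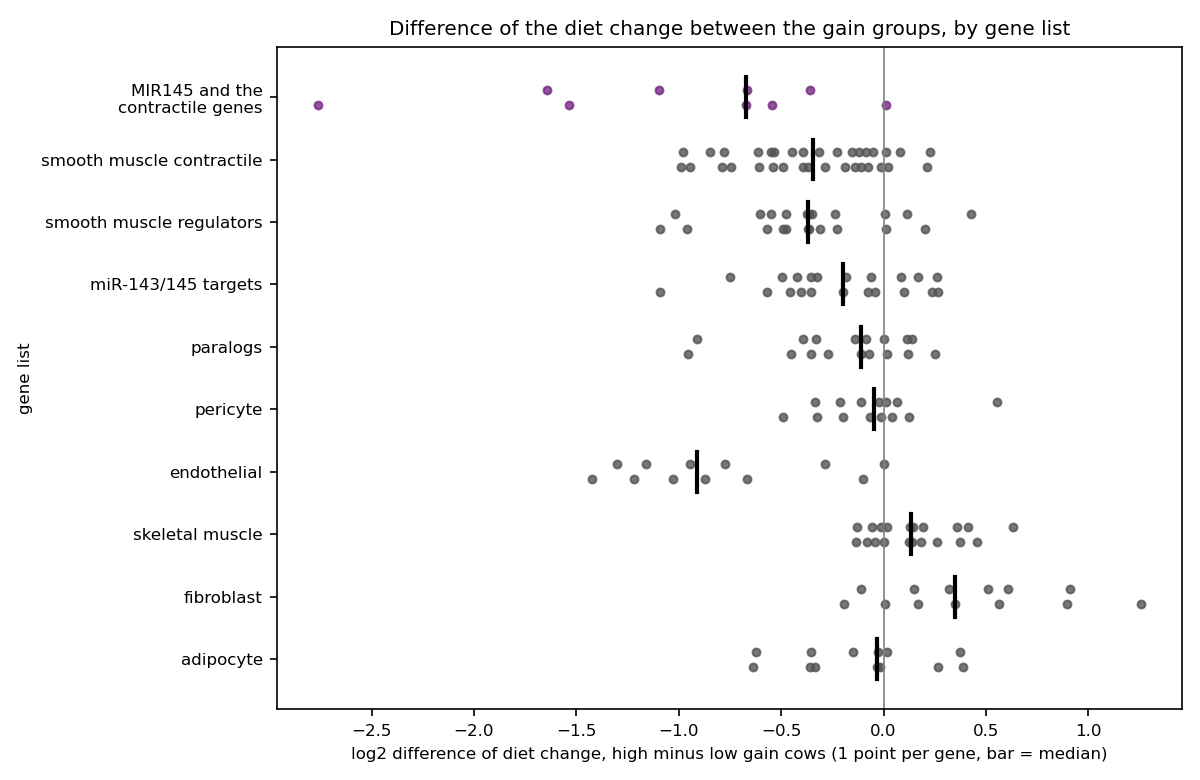
Each row is a gene list and each point a gene, plotted by the log2 difference of the diet change, high minus low gain cows (horizontal axis), with a bar at the list's median and the 9 genes in the top row in purple. The medians are -0.67 for the 9 genes, -0.34 for the contractile list, -0.37 for regulators, -0.05 for pericyte and -0.91 for endothelial markers.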

How the data were processed

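Labelled cDNA made from the total RNA of 24 biopsies was hybridised to Bovine 1.1ST arrays. The authors made the deposited log2 signals with Affymetrix Expression Console, by GC-content normalization of probes, signal space transformation and robust multichip analysis. Versions are not given in the sources used here. The series also names the Transcriptome Analysis Console, whose call is a fold over 2 at a p below 0.05, with a Bonferroni correction applied as well. Of 26773 rows, 1776 below the lowest named identifier were left out. Gene names came from the platform annotation.

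Diets were taken from the sample titles and the order of feeding in the labels. The mapping was checked against group averages in the study's tables and held for every row compared. Each array was centred on the median of its tested clusters. Diet changes and gain contrasts were estimated in R 4.3.3 with lmFit and eBayes of limma 3.58.1 (two-sided tests) on the 12 arrays concerned, and the difference of the diet change on 12 within-cow changes. Benjamini-Hochberg adjustment ran over all 24997 clusters, with a threshold of 0.05. The procedure was tested on simulated data.

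The number in the titles shows which 2 biopsies one animal gave. Deviations from group means correlated between a cow's arrays with a median of 0.19 (0.10 to 0.34) in high gain and 0.10 (0.03 to 0.29) in low gain cows, against -0.05 and -0.02 between different cows. Alternatives were the cow as a block, other scalings, other priors, dim clusters left out, 1 fit of 24 arrays and leaving out each cow. Centring by brightness, without and with the cow as a block, was added after seeing the data.

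The 9 genes, and all 11 lists, were chosen with earlier results of these data known. Each gene was read from its brightest single-symbol cluster. From each list, genes were named by the smallest p in the high gain diet comparison (up to 4) and in the ad libitum gain comparison (up to 3), and the 6 clusters most like MIR145 and MYH11 by Pearson r. No list was tested as a set. Each group holds 6 arrays, which limits the precision.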

Additional observations from a re-analysis of the deposited data

Results flagged for a closer look

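MIR145 changed in opposite directions between diets in the 2 kinds of cow, lower at ad libitum feeding in 6 of 6 high gain cows and higher in 6 of 6 low gain cows, with a difference of -2.76 log2 units (SE 0.50). The difference was not tested, because MIR145 was chosen by it. The low gain count includes L1 at 0.02, which was below 0 under the other 3 scalings.

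MYH11 in cow H6 at restriction stood at 4.70, apart from the other 5 high gain cows at restriction, which ran from 2.02 to 3.01. Its gap was 0.63 of the group's range. Among the 54 sets of 6 values examined, chance flags about 1 in 20.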

How the results depend on the processing

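Leaving the values as deposited, without centring, turned 5 small changes, each from a gene that had passed no test there. They were -0.23 for TAGLN and -0.37 for LMOD1 in high gain cows, and -0.11 for MIR143, -0.23 for MYH11 and -0.050 for LMOD1 in low gain cows. This scaling also gave 1677 clusters higher and 12945 lower in high gain cows (4481 and 4028 centred) and 1493 higher and 13593 lower in low gain cows (4643 and 3510 centred). With all cows kept, the MIR145 change lay between -1.86 and -1.44 in high gain and between 0.86 and 1.31 in low gain cows over the settings tried. With a cow left out, the MIR145 change ran from -1.69 to -1.13 in high gain and from 1.01 to 1.57 in low gain cows.

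Of the 5 tested genes, the count lower in high gain cows was 1, but 0 at the thresholds of the methods, and 0 to 1 with a cow left out. The count higher in low gain cows was 1, but 0 as deposited, 0 after quantile normalization, 0 at the thresholds of the methods and 0 after centring by brightness (1 there with the cow as a block), and 0 to 1 with a cow left out. For the difference of the diet change, 1 gene, MIR143, was lower at the thresholds of the methods (a p below 0.05 and a fold over 2, before their Bonferroni correction). The cause of these shifts was not tested.

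With a cow left out, the change ran from -0.046 to 0.31 for TAGLN and from -0.10 to 0.12 for LMOD1 in high gain cows, and from -0.11 to 0.42 for MYH11 in low gain cows. At ad libitum feeding the gain contrast ran from -0.38 to 0.33 for MYH11 and from -0.22 to 0.071 for TAGLN. The difference of the diet change ran from -0.31 to 0.15 for CNN1. For MIR145 it ran from -3.02 to -2.45.

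With the cow as a block the calls for MIR143 in high gain cows (limma adjusted p = 0.0356) and TAGLN in low gain cows (adjusted p = 0.00345) held, and no other call among the 5 genes changed. Without the block, the difference for MIR143 had an adjusted p of 0.517. At the thresholds of the methods, the counts over all clusters were 1256 higher and 515 lower in high gain cows, 1133 and 265 in low gain cows, 34 and 28 between gain groups at ad libitum feeding, 58 and 72 at restriction, and 84 and 148 for the difference. The unmoderated test called 0 clusters between gain groups at either diet after adjustment. With all 24 arrays fitted together, the ad libitum contrast had 1 cluster higher and 1 lower, and the restriction contrast 0 and 1, where the trended prior called 1 and 2. Leaving out dim clusters gave 2577 and 1751, and 3041 and 1137, since fewer clusters were tested. The 5 clusters lower for the difference became 2 as deposited, after quantile normalization and by brightness, and 0 without the block, and ran from 0 to 6 with a cow left out. Each member had a single cluster, so averaging clusters of a gene gave no alternative.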
